A study of Mus musculus with 6 samples.

Results

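The genes described here encode the non-collagen part of the cardiac extracellular matrix: matricellular proteins, fibronectin, elastic fibre and microfibril components, the lysyl oxidases that crosslink them, proteoglycans, and laminin-rich basement membrane. They were taken by symbol from the count table, and all 44 listed symbols were found among its 24404 genes. Meox1, a homeobox transcription factor linked to fibroblast activation, is on the list although its product is not a matrix protein. All 44 genes passed the filter on low counts, as did 12487 genes of the whole table. The members were listed with earlier results of these data known, so their counts are given as a description beside the same counts over all tested genes.

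Hearts came from wild-type mice (WT-TAC) and from mice lacking miR-204 (miR-204-/-, KO-TAC), 3 libraries each. Both groups had transaortic constriction, in which a band around the aorta raises the pressure against which the heart pumps, and hearts were taken 5 weeks later. Unoperated hearts were not analysed here, so each value compares genotypes under the same load. The labels give no age, sex, strain background or chamber, and do not say how the deletion was made or whether animals were pooled, so the p-values reflect the spread among these libraries, which may be technical.

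The matrix around heart muscle carries force between cells and stores growth factors. Collagen gives it stiffness, elastic fibres built of elastin on a fibrillin scaffold give it recoil, and small leucine-rich proteoglycans such as decorin space the collagen fibrils. Matricellular proteins such as periostin signal to cells more than they bear load, and they are known to be made by activated fibroblasts when the heart is under pressure. Laminins, nidogen and perlecan form the basement membrane that wraps each cardiomyocyte and vessel.

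The microRNA that is deleted in KO-TAC pairs with transcripts through its seed, bases 2 to 8. Its mature sequence (RefSeq, GRCm38.p6, chr19:22750610-22750631, plus strand) is shown first, with the seed in capitals. Below it are the windows of member transcripts that hold the seed match AAAGGGA, in capitals, searched on the sense strand of the longest annotated 3' UTR (GENCODE M21, GRCm38).
mmu-miR-204-5p: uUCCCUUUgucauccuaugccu
Loxl2, UTR bases 191 to 197: gaagaaaggggAAAGGGAaagggaagaaa
Loxl2, UTR bases 197 to 203: aggggaaagggAAAGGGAagaaaaatgac
Ltbp1, UTR bases 47 to 53: ctgcactgtgtAAAGGGAaagggagagat
Ltbp1, UTR bases 53 to 59: tgtgtaaagggAAAGGGAgagatgtatac
Fbln5, UTR bases 2064 to 2070: gaagcttggagAAAGGGAcaaatcccttc
Lamc1, UTR bases 1768 to 1774: gctgacagggtAAAGGGAttaggaacgtt
Ogn, UTR bases 510 to 516: ttagcccaaggAAAGGGAcaacacacgca
Efemp2, UTR bases 115 to 121: tgaaggacaatAAAGGGAgaaagaaggag

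A seed match was found in 6 of the 44 members, or 13.6%, against 17% of the 11690 tested genes with an annotated 3' UTR. UTR bases are counted from the first base after the stop codon. The matches in Loxl2 and in Ltbp1 overlap by their shared base, 197 and 53. Median UTR length was 1015 bases in members and 1253 in all those genes. Of the 6 genes with a match, 4 had a log2 fold change (KO-TAC over WT-TAC) above 0. The share above 0 was 70.5% over all members and 50.2% over all tested genes. The median of the 6 genes was 0.26, against 0.29 for members without a match. Over the 11690 genes the medians were -0.022 with a match and 0.0063 without. A match describes the letters only and does not show that the microRNA binds.

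No member was called, with calling set at a p under 0.05 after Benjamini-Hochberg adjustment across the tested genes. In edgeR's quasi-likelihood test the adjusted p was 0.999 for the lowest of the 44 members, and 0.024% of all tested genes, 3 of 12487, were called. DESeq2 and limma-voom also called 0 members. At an unadjusted p under 0.05 there was 1 member higher in KO-TAC, Loxl1, and 1 lower, Fmod, 2.27% of members in each direction against 1.36% and 1.57% of tested genes. A log2 fold change above 0 was found for 31 members, 70.5%, against 50.2% of tested genes. The median log2 fold change was 0.29 for members and 0.0012 for all tested genes.

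The levels of the 3 libraries of each genotype overlapped for each of the 44 members, whereas 4.26% of tested genes lay wholly higher and 3.72% wholly lower in KO-TAC. The spread lay within the groups. KO-TAC replicate 3 was below both other KO-TAC libraries for 39 members, 88.6%, against 39.8% of tested genes. WT-TAC replicate 3 was below both other WT-TAC libraries for 34 members, 77.3%, against 34.4% of tested genes. The lowest of all 6 libraries was WT-TAC replicate 3 for 20 members, 45.5% against 14.8% of tested genes, and KO-TAC replicate 3 for 16, 36.4% against 20.3%. The highest was KO-TAC replicate 1 for 20 and WT-TAC replicate 1 for 13. The share over all tested genes was not computed for the highest library, so these counts cannot be read as particular to the members.

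**Figure D1:**
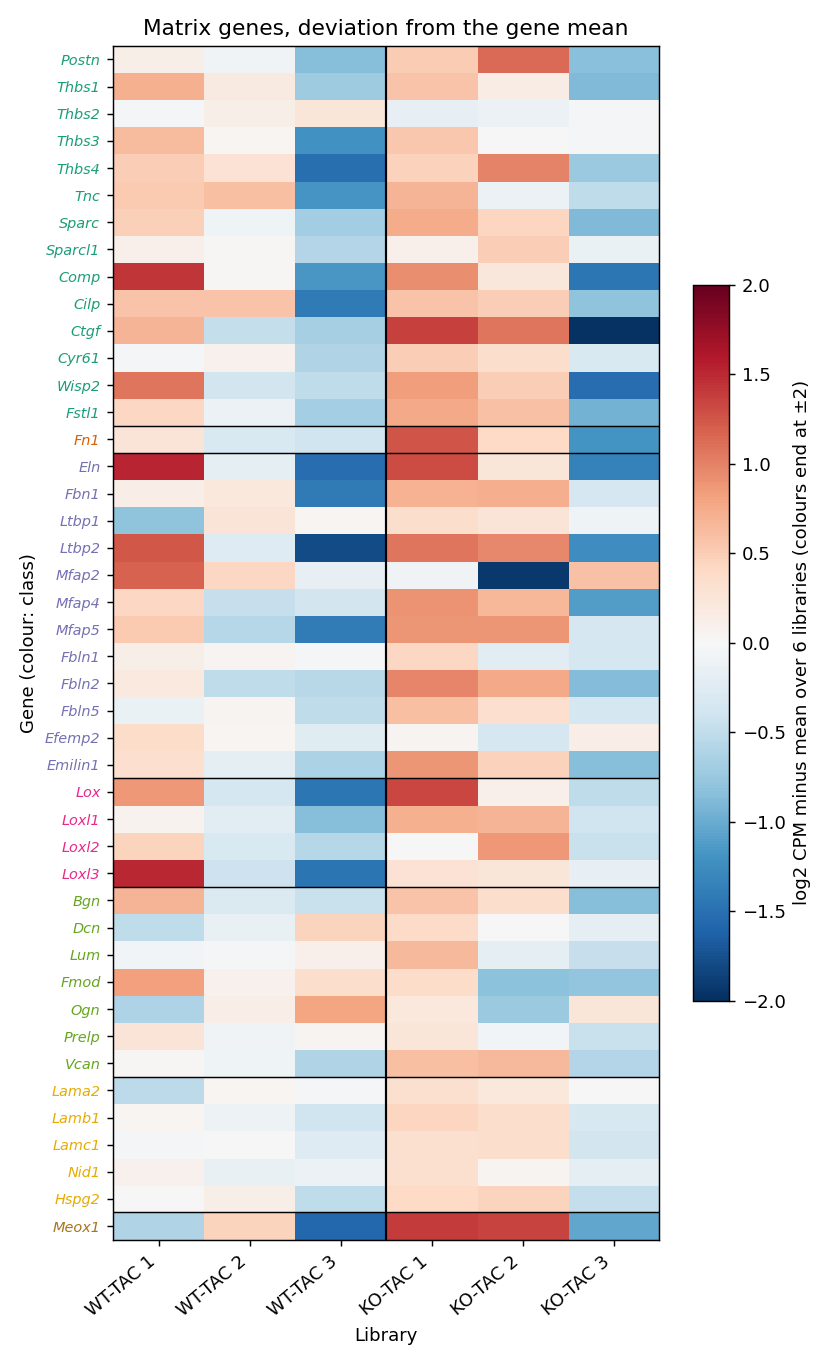
Deviation of each gene's log2 CPM from its mean over the 6 libraries (colour scale, ending at 2 either way), with genes in rows by class and libraries in columns, WT-TAC left of the black line. Red columns are WT-TAC 1, KO-TAC 1 and KO-TAC 2 and blue columns are WT-TAC 3 and KO-TAC 3 for most genes. Others do not follow this order, among them Dcn, Ogn, Thbs2, Lama2, Ltbp1 and Meox1.

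Summed over the 44 genes, the level in CPM, the count scaled to library size, was 7728, 6492 and 5009 in WT-TAC replicates 1, 2 and 3, and 10147, 9063 and 4597 in KO-TAC. That is 0.766%, 0.660% and 0.507% of counts in WT-TAC and 1.05%, 0.878% and 0.444% in KO-TAC. KO-TAC thus held both the highest libraries and the lowest. The column of KO-TAC replicate 3 carries a number other than its label's, one that also stands on WT-TAC replicate 3, and it was assigned by its library index. These libraries were also the closest of all pairs by the median chi-square of their counts, which was 3.82 to 6.68 for pairs of the same genotype and lower for this pair. Leading results are therefore also given without KO-TAC replicate 3, and those over all members also without WT-TAC replicate 3.

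Without KO-TAC replicate 3, the remaining KO-TAC libraries lay above all WT-TAC libraries for 19 members, 43.2%, against 11.9% of tested genes, and below them for 1 member, Thbs2, against 10.6%. With any other library left out, 0 to 2 members lay wholly higher, beside 7.79% to 8.98% of tested genes, and 0 to 3 wholly lower, beside 7.36% to 9.11%. Without it, edgeR gave an unadjusted p under 0.05 for 16 members, all higher in KO-TAC, which is 36.4% of members against 5.58% of 12948 tested genes in either direction. Still 0 members were called, and the lowest adjusted p was 0.237, for Fbln2. KO-TAC replicate 3 was below both other KO-TAC libraries for 39 members, so leaving it out raises their KO-TAC level by construction. The direction of these counts is thus no test of genotype, and the same holds for the single genes below. In the fit without KO-TAC replicate 3, 38 members had a log2 fold change above 0, beside 49.7% of tested genes. The median was 0.43 for members and -0.0029 for tested genes. By class the medians were then 0.43 for matricellular genes, 0.72 for elastic fibre genes, 0.73 for lysyl oxidases, 0.22 for proteoglycans and 0.43 for basement membrane. Without KO-TAC replicate 1, in contrast, 22 members were above 0, beside 49.7% of tested genes, and the members' median was 0.014. Leaving out WT-TAC replicate 3 instead, 28 members were above 0, beside 50.4% of tested genes, and the members' median was 0.13. There edgeR gave an unadjusted p under 0.05 for 0 members, beside 489 of 12835 tested genes, and the matricellular median was -0.07.

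**Figure D2:**
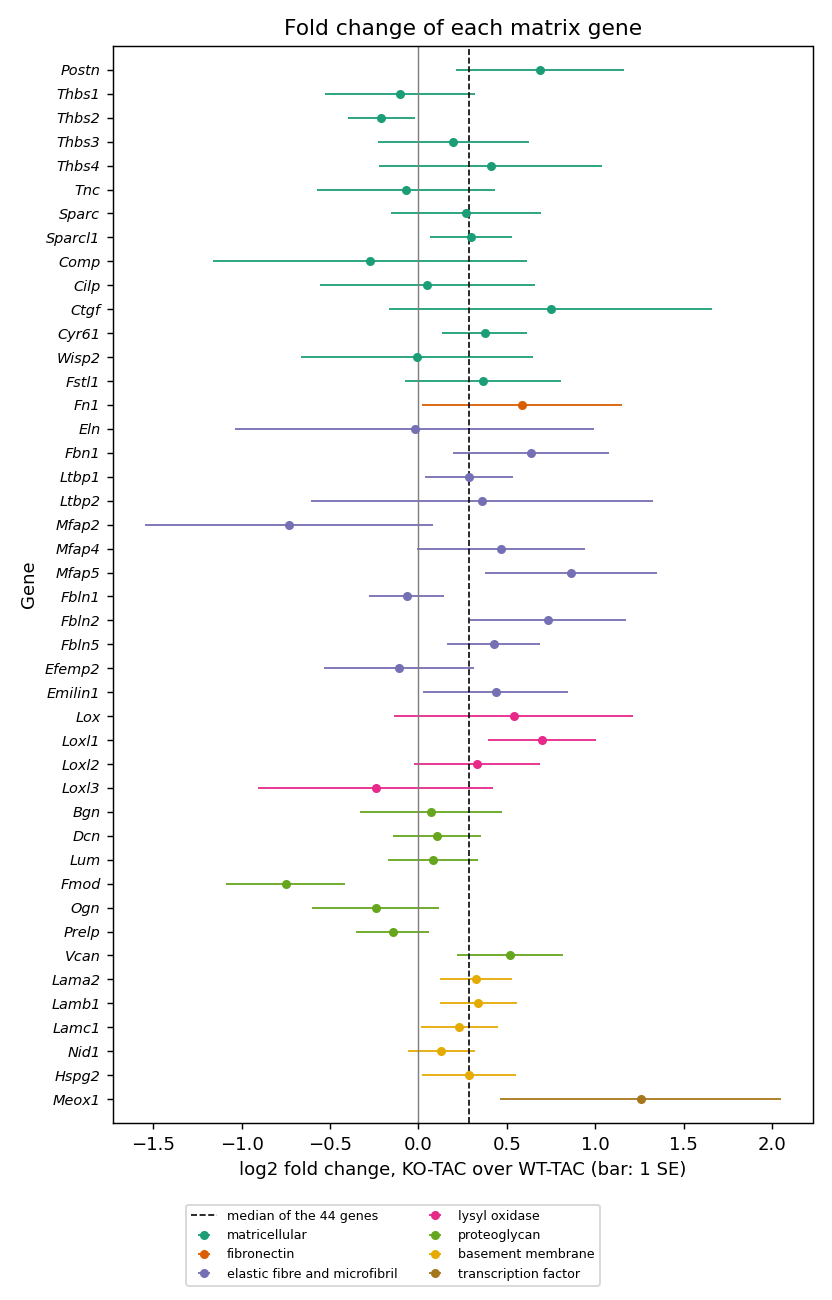
Log2 fold change of KO-TAC over WT-TAC for each of the 44 genes (points, coloured by class), with bars of 1 standard error (SE) from edgeR; the dashed line is the members' median of 0.29. The 5 basement membrane genes lie close together above 0, and Meox1 is farthest to the right with a wide bar.

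Matricellular genes had a median log2 fold change of 0.23, with 9 of 14 above 0 and 0 called. Postn encodes periostin, a protein of activated fibroblasts, and lies at chr3:54361109-54391037 on the plus strand (GRCm38). Its level was 178, 155 and 90.9 CPM in WT-TAC replicates 1 to 3 and 232, 360 and 91.3 in KO-TAC. KO-TAC replicates 1 and 2 stood above every WT-TAC library, and the third KO-TAC library matched the lowest WT-TAC library. The means were 142 ± 45.3 and 228 ± 134 CPM (SD, n = 3), and the 95% interval of the fold of 1.61 spanned 0.845 to 3.07. Without KO-TAC replicate 3 its log2 fold change was 1.07 ± 0.27 (SE; edgeR adjusted p = 0.480), and without KO-TAC replicate 2 it was 0.19.

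Ctgf (Ccn2), which encodes connective tissue growth factor, a target of TGF-beta and of the YAP and TEAD factors, varied most among the members with a mean of at least 10 CPM. Its level was 434, 195 and 170 CPM in WT-TAC and 700, 570 and 68.4 in KO-TAC, a ratio of 10.2 between the highest and lowest library. The KO-TAC libraries bracket the whole WT-TAC range. The fold was 1.68, with an interval of 0.483 to 5.82, and leaving out KO-TAC replicate 3 gave a log2 fold change of 1.26 ± 0.35 (edgeR adjusted p = 0.597). From 0.75 ± 0.92 with all libraries it was 0.27 without KO-TAC replicate 1, 0.31 in limma-voom and 0.36 with the replicate block. The gene lies at chr10:24595442-24598683, plus strand.

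Cyr61 (Ccn1), a relative of Ctgf and likewise a YAP target, varied far less. It stood at 98.3, 107 and 66.4 CPM in WT-TAC and at 142, 129 and 81.9 in KO-TAC. The same KO-TAC libraries were highest, but the ratio of highest to lowest was 2.14. The log2 fold change went from 0.37 ± 0.24 to 0.58 ± 0.22 without KO-TAC replicate 3 (edgeR adjusted p = 0.751). It was 0.19 without WT-TAC replicate 3. Wisp2 (Ccn5), the third member of that family listed here, stood at 48.1, 17.8 and 16.2 CPM in WT-TAC and 40.8, 32.3 and 7.98 in KO-TAC, with a log2 fold change of -0.01 ± 0.66. These related genes thus shared their low library in KO-TAC but not their size of spread.

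Promoters, taken here as 250 bases before to 50 after the annotated start, were given by RefSeq for 27 of the 44 members. They are shown for Cyr61 and Postn, whose levels in KO-TAC replicates 1 and 2 were above all WT-TAC libraries and whose windows hold the letters marked. Lama2 had its levels in the same order and also has a window, which holds neither of these letters and is not shown. Capitals mark GGAATG, the core letters of TEAD binding, and TATAAA, the TATA box, each searched on both strands.
Cyr61, chr3:145649936-145650235, minus strand: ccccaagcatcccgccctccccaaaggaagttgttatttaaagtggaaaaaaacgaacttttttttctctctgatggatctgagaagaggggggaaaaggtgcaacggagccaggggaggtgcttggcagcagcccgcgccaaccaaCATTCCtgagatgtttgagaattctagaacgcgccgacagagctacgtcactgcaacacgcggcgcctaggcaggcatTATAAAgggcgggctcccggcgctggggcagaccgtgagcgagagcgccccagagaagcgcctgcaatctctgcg
Postn, chr3:54360857-54361156, plus strand: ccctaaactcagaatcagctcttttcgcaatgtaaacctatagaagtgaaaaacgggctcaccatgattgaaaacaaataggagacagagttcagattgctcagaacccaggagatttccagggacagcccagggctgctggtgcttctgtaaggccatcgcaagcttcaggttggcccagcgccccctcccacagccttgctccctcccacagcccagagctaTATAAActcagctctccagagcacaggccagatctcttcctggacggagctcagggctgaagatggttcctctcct

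The build of these windows is GRCm38.p6. GGAATG was in at least 1 window of 5 of the 27 members, Cyr61, Mfap2, Nid1, Ogn and Thbs4, and in 14.3% of the members' 35 windows against 14.7% of all 32851. TATAAA was in 17.1% of the members' windows against 13.6% of all, in Cyr61, Ogn, Postn, Thbs2 and Tnc. The AP-1 letters TGANTCA were in 0 of them against 7.81%, GTCTAGAC, the SMAD palindrome, in 0 against 0.213%, and the CArG box of serum response factor in 1, of Lama2, against 1.63%. A second RefSeq start of Postn held none of these letters. Among genes with GGAATG, the log2 fold change was above 0 for Cyr61, Nid1 and Thbs4 and below 0 for Mfap2 and Ogn. Among genes with TATAAA, it was above 0 for Cyr61 and Postn and below 0 for Ogn, Thbs2 and Tnc.

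Sparc, a collagen-binding glycoprotein, stood at 663, 448 and 293 CPM in WT-TAC and 794, 638 and 258 in KO-TAC. KO-TAC libraries reached above and below the WT-TAC range, and the log2 fold change of 0.27 ± 0.42 was -0.06 without KO-TAC replicate 1. Thrombospondins, which bind calcium and growth factors, mostly shared their low libraries. Thbs1, Thbs3, Thbs4 and Comp were lowest in replicate 3 of each genotype, whereas Thbs2 was highest there. Thbs4 had 100, 87.1 and 24.9 CPM in WT-TAC and 97.8, 141 and 42.6 in KO-TAC, whereas Thbs2 kept within 40.6 to 53.7 CPM over all 6 libraries. Comp, also a thrombospondin and known from cartilage, ran from 142 to 23.4 CPM in WT-TAC and from 99.7 to 19.4 in KO-TAC. Tnc, tenascin C, was low throughout at 2.60 to 9.50 CPM. The remaining matricellular genes, Thbs1, Thbs3, Sparcl1, Cilp and Fstl1, had log2 fold changes between -0.10 and 0.37. Values of Comp, Thbs2, Thbs4 and Wisp2 are given for their spread and were chosen after they were seen.

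Fn1 encodes fibronectin, on which other matrix proteins assemble, and lies at chr1:71585520-71653200, minus strand. Its level was 368, 249 and 234 CPM in WT-TAC and 736, 407 and 135 in KO-TAC. KO-TAC replicate 1 was highest and KO-TAC replicate 3 lowest of all. The log2 fold change was 0.59 ± 0.57 with all libraries, 1.01 ± 0.27 without KO-TAC replicate 3 (edgeR adjusted p = 0.500) and -0.06 without KO-TAC replicate 1.

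**Figure D3:**
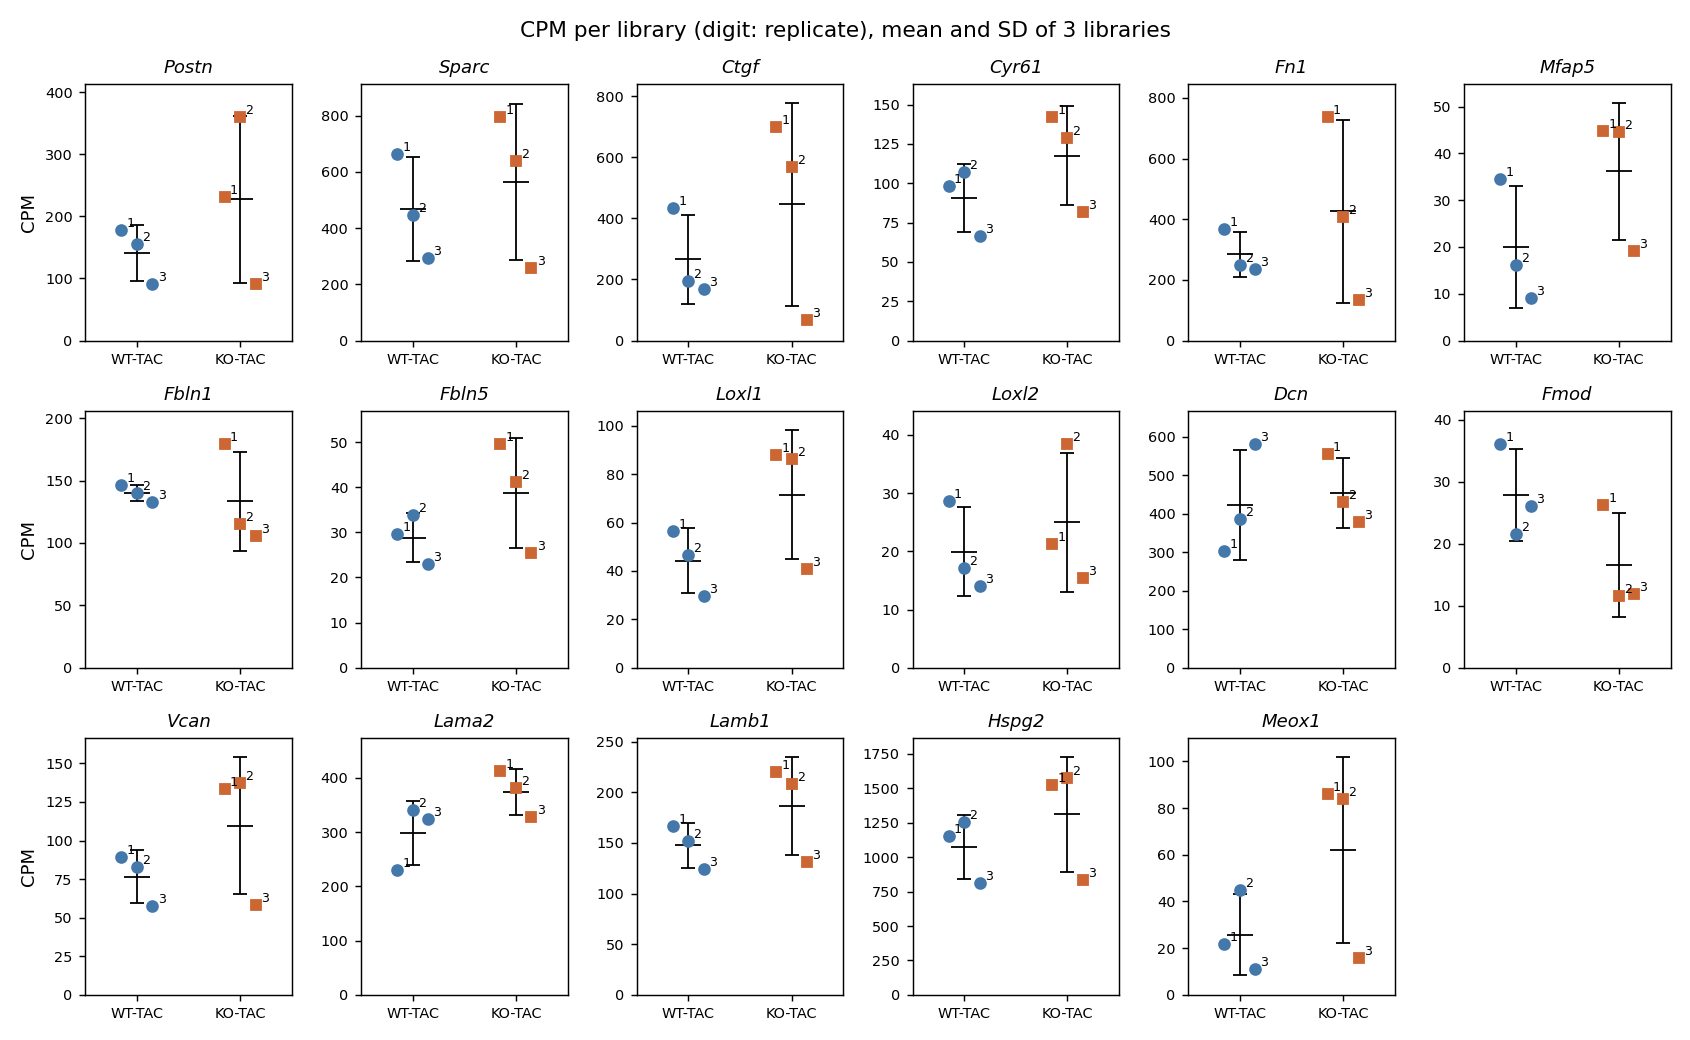
CPM of 17 members in each library (points, digits give the replicate), WT-TAC as circles and KO-TAC as squares, with the mean and SD of 3 libraries as black lines. In 12 of the panels KO-TAC 1 and 2 lie above all WT-TAC libraries, and KO-TAC 3 lies among or below them.

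Elastic fibre and microfibril genes had a median log2 fold change of 0.39, with 8 of 12 above 0 and 0 called. Mfap5, a microfibril glycoprotein at chr6:122505845-122529290 on the plus strand, had the lowest p of the class. Its level was 34.6, 16.2 and 9.18 CPM in WT-TAC and 44.7, 44.6 and 19.2 in KO-TAC. The lowest KO-TAC library exceeded 2 WT-TAC libraries but not the third. Its fold was 1.82, with an interval of 0.939 to 3.53, and its log2 fold change stayed within 0.52 and 1.50 with any library left out.

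Fbln5, fibulin 5, which helps place elastin on microfibrils and holds a seed match, stood at 29.6, 33.9 and 23.0 CPM in WT-TAC and 49.5, 41.2 and 25.4 in KO-TAC. Only KO-TAC replicate 3 kept the groups from separating, and without it the log2 fold change went from 0.43 ± 0.26 to 0.65 ± 0.24 (edgeR adjusted p = 0.749). Leaving out KO-TAC replicate 1 instead gave 0.21. Fbln1, the most abundant gene of the class per length, stood at 146, 140 and 133 CPM in WT-TAC and 179, 116 and 106 in KO-TAC. There KO-TAC replicate 1 lay above and both other KO-TAC libraries below the narrow WT-TAC range.

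Fbln2, Fbn1 and Eln were chosen after their values were seen. Fbln2, fibulin 2, had 197, 121 and 117 CPM in WT-TAC and 338, 292 and 94.6 in KO-TAC. Leaving out KO-TAC replicate 3 moved its log2 fold change from 0.73 ± 0.44 to 1.12 ± 0.24 (edgeR adjusted p = 0.237), and leaving out KO-TAC replicate 1 moved it to 0.41. Fbn1, fibrillin 1, the microfibril backbone, had 297, 313 and 102 CPM in WT-TAC and 442, 451 and 214 in KO-TAC. Eln, the gene of elastin itself, had 210, 64.5 and 25.5 CPM in WT-TAC and 180, 86.5 and 28.7 in KO-TAC, a log2 fold change of -0.02 ± 1.02 with a ratio of 8.24 between its extreme libraries. Ltbp2, a latent TGF-beta binding protein homologue of elastic tissue, had a ratio of 8.16, its lowest level, 19.0 CPM, being in WT-TAC replicate 3. Mfap2 rested on 3 to 20 counts per library, so its log2 fold change of -0.73 ± 0.82 is limited by depth. The others, Ltbp1, Mfap4, Efemp2 and Emilin1, lay between -0.11 and 0.47.

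Lysyl oxidases, copper enzymes that crosslink elastin and collagen, had a median of 0.44, with 3 of 4 above 0 and 0 called. Loxl1, at chr9:58287738-58313186 on the minus strand, had the lowest p of all members. Its level was 56.3, 46.5 and 29.7 CPM in WT-TAC and 87.8, 86.1 and 40.6 in KO-TAC. The KO-TAC libraries 1 and 2 lay above WT-TAC and the third among it. The fold was 1.62, with an interval of 1.07 to 2.46 (edgeR unadjusted p = 0.0424, adjusted p = 0.999). The log2 fold change was 0.98 ± 0.24 without KO-TAC replicate 3 (edgeR adjusted p = 0.457) and 0.48 without WT-TAC replicate 3.

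Loxl2, which holds the overlapping seed matches shown above, stood at 28.6, 17.1 and 14.1 CPM in WT-TAC and 21.2, 38.4 and 15.4 in KO-TAC. KO-TAC replicate 2 alone was above WT-TAC, and without it the log2 fold change of 0.33 ± 0.36 turned to -0.12. Lox and Loxl3 spanned ratios of 6.93 and 7.79 between libraries. Loxl3 was highest in WT-TAC replicate 1, at 44.8 CPM, against 5.75 to 19.4 in the other libraries.

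Proteoglycan genes had a median log2 fold change of 0.07, with 4 of 7 above 0 and 0 called. Fmod encodes fibromodulin, a leucine-rich proteoglycan on collagen fibrils, at chr1:134037254-134048277, plus strand. It stood at 36.0, 21.6 and 26.0 CPM in WT-TAC and 26.3, 11.5 and 11.8 in KO-TAC. KO-TAC replicates 2 and 3 were below all WT-TAC libraries and KO-TAC replicate 1 was among them. Its fold was 0.594, with an interval of 0.375 to 0.941 (edgeR unadjusted p = 0.0446, adjusted p = 0.999), and the log2 fold change stayed between -1.25 and -0.53 with any library left out.

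Vcan, versican, a large hyaluronan-binding proteoglycan, had its 2 highest libraries in KO-TAC. Its level was 89.7, 82.9 and 57.5 CPM in WT-TAC and 134, 137 and 58.4 in KO-TAC. Without KO-TAC replicate 3 its log2 fold change went from 0.52 ± 0.30 to 0.82 ± 0.21 (edgeR adjusted p = 0.468). Leaving out KO-TAC replicate 2 instead gave 0.32. Dcn, decorin, the most abundant gene of this class per length, stood at 302, 385 and 580 CPM in WT-TAC and 554, 430 and 378 in KO-TAC. WT-TAC replicate 3, low for most members, was the highest library for Dcn. Ogn, osteoglycin, likewise peaked there at 127 CPM and was lowest at 44.2 in KO-TAC replicate 2. Bgn, biglycan, also chosen after its values were seen, followed the matricellular order instead, with 539, 277 and 247 CPM in WT-TAC and 500, 429 and 186 in KO-TAC. Lum and Prelp had log2 fold changes of 0.08 and -0.15.

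Basement membrane genes were the most even class, with 5 of 5 above 0, a median log2 fold change of 0.29 and 0 called. Lama2, the laminin chain of muscle whose loss causes muscular dystrophy, stood at 230, 340 and 324 CPM in WT-TAC and 412, 381 and 328 in KO-TAC. WT-TAC replicate 1 was lowest here, unlike for most members. Lamb1, a laminin beta chain, stood at 167, 152 and 124 CPM in WT-TAC and 220, 208 and 131 in KO-TAC. Hspg2, perlecan, the heparan sulphate proteoglycan of the basement membrane, stood at 1154, 1257 and 814 CPM in WT-TAC and 1525, 1576 and 831 in KO-TAC. Without KO-TAC replicate 3 the log2 fold change of Lamb1 went from 0.34 to 0.54 (edgeR adjusted p = 0.744). That of Hspg2 went from 0.29 to 0.53 (edgeR adjusted p = 0.883). At their lowest they were 0.20 for Lamb1, without KO-TAC replicate 1, and 0.12 for Hspg2, without WT-TAC replicate 3. Lamc1, the laminin gamma chain with a seed match, and Nid1, nidogen, had log2 fold changes of 0.23 ± 0.22 and 0.13 ± 0.19.

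Meox1, at chr11:101877510-101894374 on the minus strand, had the largest log2 fold change among the members, 1.26 ± 0.79. Its level was 21.7, 44.8 and 11.1 CPM in WT-TAC and 86.2, 83.8 and 16.0 in KO-TAC. KO-TAC replicates 1 and 2 were well above WT-TAC and the third was inside its range. The interval of its fold of 2.39 ran from 0.814 to 7.01. Without KO-TAC replicate 3 the log2 fold change was 1.71 ± 0.51 (edgeR adjusted p = 0.714), and without WT-TAC replicate 3 it was 0.89.

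The classes differed in how far libraries stood apart. The ratio of the highest to the lowest library had a median of 3.04 over the 40 members with a mean of at least 10 CPM, and 50% of them reached 3, against a median of 1.68 and 6.23% over 8607 tested genes at that level. By class the median ratio was 4.94 for lysyl oxidases, 3.81 for elastic fibre genes, 3.61 for matricellular genes, 2.38 for proteoglycans and 1.78 for basement membrane. Meox1 reached 7.77 and Fn1 5.48. Basement membrane genes were thus near the ratio of genes in general.

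Per kilobase of exon, the scale on which levels can be compared between genes, Sparc (136 CPM per kb as the mean over 6 libraries), Ctgf (124) and Sparcl1 (110) led, followed by Hspg2 (83.4), Dcn (75.1) and Bgn (59.5). Tnc (0.840), Mfap2 (1.37), Efemp2 (1.44) and Thbs3 (1.99) were lowest. The libraries of Sparc, Ctgf and Sparcl1 overlap, so their order is not fixed by these data. Exon length was the union over annotated transcripts, which understates the level of genes with long rare isoforms.

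**Figure D4:**
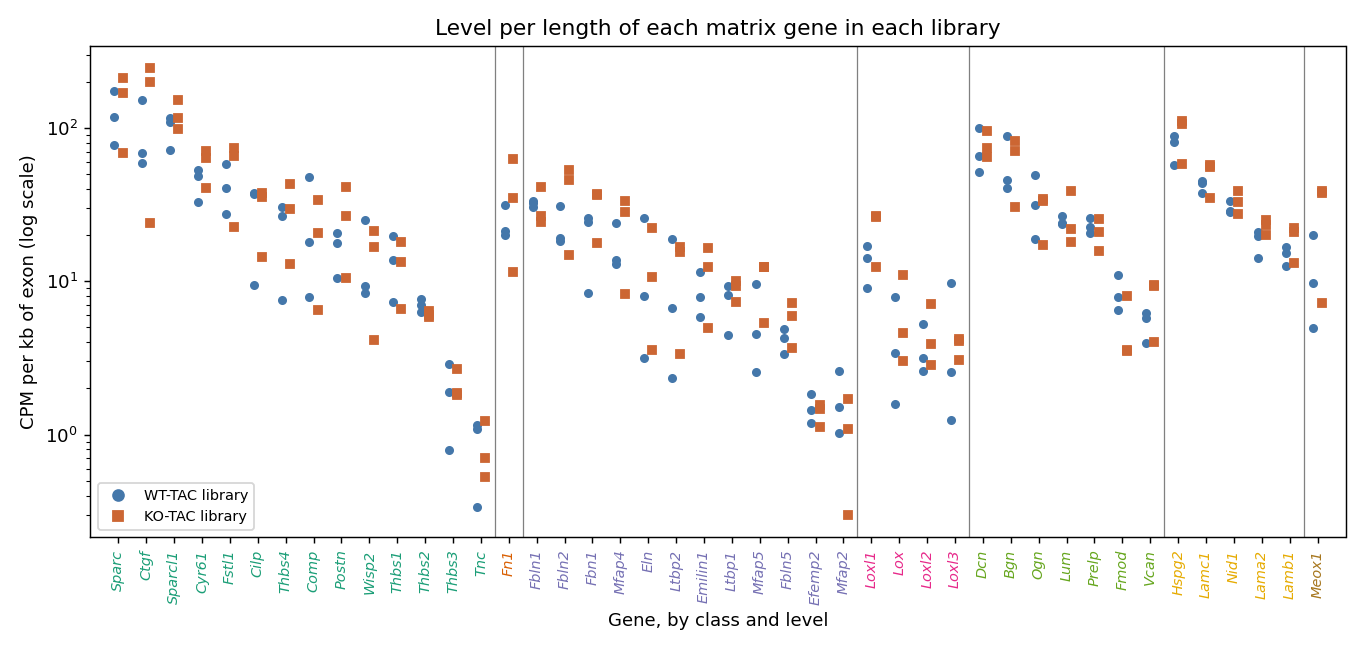
CPM per kb of exon (log axis) of each of the 44 genes in each library, WT-TAC as circles and KO-TAC as squares, ordered within class by mean; label colours and grey lines separate the classes. Sparc, Ctgf and Sparcl1 are highest, and the points of basement membrane genes are the tightest.

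Among matrix genes outside the list, 0 were called over all genes. At an unadjusted p under 0.05 in edgeR, 1.36% of all tested genes were higher and 1.57% lower in KO-TAC. Of the other matricellular and adhesive genes, 3 of 23 tested were under that threshold, all higher in KO-TAC. They were Svep1, a large adhesion protein, at 0.84 ± 0.29 (edgeR adjusted p = 0.999), Srpx2 at 0.95 ± 0.37 and Smoc2, a calcium-binding relative of Sparc, at 0.60 ± 0.27. Svep1 stood at 82.1, 76.8 and 74.1 CPM in WT-TAC and 203, 139 and 74.5 in KO-TAC, so KO-TAC replicate 3 again lay among WT-TAC.

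Of 20 matrix receptors 0 were higher and 2 lower at that unadjusted threshold, beside 1.36% and 1.57% of all tested genes. Itgb3, the integrin beta chain of platelets that also binds fibronectin and vitronectin, stood at 43.3, 23.2 and 10.0 CPM in WT-TAC and 7.60, 6.32 and 6.95 in KO-TAC. Its groups did not overlap, and its log2 fold change was -1.87 ± 0.44 (edgeR adjusted p = 0.874). Itga8, an integrin chain of mesenchymal cells, had -1.12 ± 0.42. In the lists of other elastic fibre genes (14 tested), proteoglycans (19), basement membrane (10) and upstream TGF-beta and YAP or TEAD genes (24), 0 reached an unadjusted p under 0.05. Medians of these lists ran from -0.04 to 0.12. Tgfb2, a TGF-beta ligand singled out after its values were seen, had the same libraries low as the matricellular genes, with 60.4, 34.2 and 22.7 CPM in WT-TAC and 55.4, 64.9 and 17.1 in KO-TAC.

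In whole tissue, fewer cells of a type and less RNA per cell cannot be told apart. The 9 cardiac fibroblast markers, all tested and 0 called, summed to 2248 to 3756 CPM in WT-TAC and 1863 to 4688 in KO-TAC, with none at 0 in any library. By library the sums were 3756, 2733 and 2248 in WT-TAC and 4688, 3079 and 1863 in KO-TAC, the order of the matrix genes within each genotype, and their part in the members' levels was not tested. Of the 9 markers 5 followed that order in both genotypes, Col1a1, Col1a2, Col3a1, Pi16 and Cd248, and 4 did not, Pdgfra, Tcf21, Gsn and Ddr2. Col1a1, a collagen chain, stood at 917, 340 and 137 CPM in WT-TAC and 403, 342 and 147 in KO-TAC. Pdgfra, a receptor of fibroblasts, stood at 78.2, 53.5 and 80.3 CPM in WT-TAC and 93.5, 72.8 and 89.8 in KO-TAC. Gsn, gelsolin, stood at 899, 1282 and 1420 CPM in WT-TAC and 2296, 1464 and 1058 in KO-TAC.

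Other marker lists also varied between libraries, and their part in the members' levels was not tested. Atrial markers (6 of 7 tested) summed to 3176 to 8825 CPM in WT-TAC and 541 to 7821 in KO-TAC, lowest in KO-TAC replicate 3, with Bmp10 at 0 in some libraries. Smooth muscle markers (6 of 6 tested) summed to 307 to 454 CPM and 160 to 335, and mesothelial and epicardial markers (7 of 7) to 22.0 to 93.1 and 16.7 to 57.0. All tested markers of these 3 lists had a log2 fold change below 0, with medians of -0.38, -0.73 and -0.67. In edgeR the smooth muscle markers Lmod1 and Myh11 had an unadjusted p under 0.05, and 0 markers were called. Of all tested genes 1.57% were lower in KO-TAC at that threshold. Endothelial (792 to 967 and 907 to 1230), pericyte (651 to 755 and 742 to 841) and macrophage (171 to 213 and 145 to 258) sums varied less. Of the 7 endothelial markers 6 were above 0, beside 50.2% of all tested genes, with a median of 0.26. Kdr had an unadjusted p under 0.05 in edgeR, as did 1.36% of all tested genes in that direction. Cardiomyocyte markers, which a heart label calls for, were high in each library. Their sums were 157000, 167800 and 170700 CPM in WT-TAC replicates 1 to 3 and 135900, 169600 and 210700 in KO-TAC. Within each genotype that is the reverse of the order of the members' sums. Not every marker followed it, as Tnnt2 stood at 9619, 9307 and 8631 CPM in WT-TAC. Tendon and cartilage (2 of 6 tested) and adipocyte (2 of 5) markers summed to at most 44.4 and 29.7 CPM, with Acan and Adipoq among those at 0 in some libraries.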

How the data were processed

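Libraries were made with a plain or a stranded TruSeq kit and sequenced in pairs, per the labels' protocols. The kit of each library is not stated there, so reads of overlapping and antisense genes may be mixed. HISAT2 2.1.0, Subread, FastQC and edgeR, with the builds GRCm38 and mm10, are listed in the submitters' processing notes, which give them no role. The authors deposited raw counts per gene symbol, without normalization. Totals ran from 6411538 to 8571737 counts. Every pair of libraries differed beyond sampling noise (median chi-square at least 3.00 over genes with 50 counts in the pair, against 0.455 for noise). The lowest value was that of WT-TAC replicate 3 and KO-TAC replicate 3, whose columns carry the same number, below the 3.82 to 6.68 of pairs within a genotype. Members had 3 to 12973 counts per library, so for most the spread between samples limits precision.

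The whole table was fitted in edgeR 4.0.16 (R 4.3.3): filterByExpr with a minimum count of 10, TMM scaling, and a robust quasi-likelihood fit of KO-TAC against WT-TAC without covariates. A gene was called at an adjusted p (Benjamini-Hochberg) under 0.05. The standard error (SE) is the log2 fold change over the root of the F statistic, and 95% intervals span 1.96 SE. They can be narrower than the test allows. CPM are TMM-scaled. On data simulated for this comparison over 12487 genes, over 3 sets, the share recovered was 31.7% at a 2-fold and 81.3% at a 4-fold change. There were 23 false calls over the sets. The changed genes were drawn at random from all tested genes. Members spread more between libraries, so these shares may overstate what would be recovered among them. Alternatives were other scalings and filters, DESeq2 1.42.0, limma-voom 3.58.1, the replicate number as a block, and each library left out.

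The members, classes and lists were chosen with earlier results of these data known. Values in every library are given for the 2 members of each class with the smallest p, the most abundant per length, Postn, Ctgf, Fn1 and Meox1, while Comp, Thbs2, Thbs4, Wisp2, Fbln2, Fbn1, Eln, Bgn, Tgfb2 and any other gene named for an extreme value were picked after their values were seen. Gene positions are from GENCODE M21. Ctgf, Cyr61 and Wisp2 were matched through RefSeq synonyms, so 44 of 44 members matched.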

Additional observations from a re-analysis of the deposited data

How the results depend on the processing

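The members stayed at 0 called under every alternative run: the other scalings (RLE, upper-quartile, none), a stricter filter on low counts and none, limma-voom, DESeq2, the replicate block and each library left out. Over all genes, edgeR called 3 genes, 21 without a filter on low counts and 6 with the replicate block, DESeq2 called 16, and limma-voom called 0, with 376 at an unadjusted p under 0.05. With 1 library left out the count ran from 0 (without WT-TAC replicate 1, 437 at an unadjusted p under 0.05) to 7 (without KO-TAC replicate 2), with 6 without KO-TAC replicate 3. The members' median log2 fold change lay between 0.26 and 0.30 under the other scalings, filters and tools, was 0.28 with the replicate block, and ran from 0.014 without KO-TAC replicate 1 to 0.55 without WT-TAC replicate 1 when 1 library was left out. The proteoglycan median ran from -0.31 (without KO-TAC replicate 1) to 0.22, the matricellular median from -0.07 to 0.62, the lysyl oxidase median from 0.14 to 0.94, the elastic fibre median from 0.089 to 0.75 and the basement membrane median from 0.14 to 0.43. The sign turned with 1 library left out for 22 of the 44 members, among them Eln (-0.79 to 1.12), Wisp2 (-0.43 to 0.66), Bgn (-0.20 to 0.50), Thbs4 (-0.01 to 0.76), Dcn (-0.10 to 0.40), Fbln1 (-0.33 to 0.074), Fn1 (-0.065 to 1.01), Loxl2 (-0.12 to 0.67) and Sparc (-0.060 to 0.615).

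Whether the labels' replicate numbers pair the libraries is not settled by these data. Deviations from the group means correlated at 0.135, 0.011 and 0.257 for the same numbers, the last being the highest of all pairs. WT-TAC replicate 1 correlated slightly better with KO-TAC replicate 2 (0.146). It correlated at -0.223 with KO-TAC replicate 3, and WT-TAC replicate 3 at -0.137 with KO-TAC replicate 1. With the replicate block, 11 members had an unadjusted p under 0.05, 10 higher and 1 lower in KO-TAC, or 25% of members against 4.6% of tested genes. Without the block there were 2, and with it the lowest adjusted p was 0.348, for Meox1.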
